A study of Mus musculus with 51 samples.

Results

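The stretch of mouse chromosome 2 from 168.93 to 169.06 Mb (GRCm38) holds the start of Zfp64, which encodes a zinc finger transcription factor, and the long intergenic noncoding RNA genes 1700017J07Rik, Gm14260 and Gm9873. Its members were every peak of the 6 allelic count tables that overlapped the stretch by at least 1 bp and every 1 kb window of the RPKM table inside it, in all crosses, tissues and marks, which gave 23 of 150793 peaks and 130 of 2462755 windows. The stretch was chosen by allelic reads of these same embryos, because the paternal bias in it differed in size between the reciprocal crosses. The parental bias in the wild-type crosses and its difference between crosses are therefore described and not tested. Of the 23 peaks, 19 were informative, meaning that 20 reads or more fell on an allele in at least 1 wild-type library. These were 5 of 6 H3K4me3 peaks in extra-embryonic ectoderm (ExE), 6 of 8 in epiblast, all 3 H3K27me3 peaks in ExE, the 1 H3K27me3 peak in epiblast, all 3 H3K36me3 peaks in ExE and 1 of 2 H3K36me3 peaks in epiblast.

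A working name of the stretch puts the noncoding genes downstream of Zfp64, but Zfp64 (ENSMUSG00000027551.15, chromosome 2, 168893331 to 168955587) is read from the minus strand in GENCODE vM21. Its start site is at 168955587, so 1700017J07Rik (ENSMUSG00000086348.1, 168978268 to 168978906, plus strand), Gm14260 (ENSMUSG00000086658.1, 168986566 to 168987373, minus strand) and Gm9873 (ENSMUSG00000052368.2, 169020025 to 169021385, plus strand) all lie upstream of that start site. Distances are given here from the Zfp64 start site along the plus strand, towards the noncoding genes.

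Epiblast, which forms the embryo proper, and ExE, which contributes to the placenta, had been separated by hand at embryonic day 6.5 and pooled over a few embryos per library. The 3 crosses, written with the mother first, were B6/CAST (C57BL6/Babr mother, CAST/Ei father, wild type), CAST/B6 (the reciprocal, wild type) and matDKO/CAST. In matDKO/CAST the mothers were of mixed B6/129 background and floxed for Dnmt3a and Dnmt3b, with a Zp3-cre transgene that acts in the growing oocyte, so that the embryos inherited no oocyte DNA methylation and carried 1 deleted maternal copy of each gene. The fathers of B6/CAST and matDKO/CAST were CAST, and those of CAST/B6 were B6. Each of the 18 groups of cross, tissue and mark had 2 libraries, and there were 15 inputs. Because a library is a pool, a mark that is weak in every cell and a mark that is absent from some of the cells cannot be told apart, and the same holds for fewer embryos with a bias and a smaller bias in all.

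In genomic imprinting 1 parental allele of a gene is kept silent. Canonical imprints rest on DNA methylation that the germ line lays down, most often in the oocyte, and zinc finger proteins such as ZFP57 protect it after fertilisation. A smaller noncanonical class starts from H3K27me3 that the oocyte deposits and shows mainly in extra-embryonic tissue. H3K4me3 marks active or poised promoters, H3K36me3 covers the bodies of transcribed genes, and H3K27me3 is the mark of Polycomb repression. A parental effect keeps its direction when the strains of the parents are exchanged, whereas a strain effect turns around.

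The sequences below are the RefSeq starts of the named genes and the strongest H3K4me3 windows of the intergenic peaks, shown to place the members and their CpGs. They were taken from RefSeq's GRCm38.p6 assembly and are written 5′ to 3′ with CpG dinucleotides, the sites of DNA methylation, in capitals. The first 2 are promoters, from 250 bases before to 50 after the start site, on the minus strand for Zfp64 (chr2:168955538-168955837) and on the plus strand for 1700017J07Rik (chr2:168978019-168978318). The other 2, on the plus strand, are the central 300 bases of the window with the most H3K4me3 in ExE of a peak 13 kb (chr2:168970351-168970650) and of a peak 49 kb (chr2:169006351-169006650) beyond the Zfp64 start site, neither of which holds an annotated gene.
Zfp64 promoter: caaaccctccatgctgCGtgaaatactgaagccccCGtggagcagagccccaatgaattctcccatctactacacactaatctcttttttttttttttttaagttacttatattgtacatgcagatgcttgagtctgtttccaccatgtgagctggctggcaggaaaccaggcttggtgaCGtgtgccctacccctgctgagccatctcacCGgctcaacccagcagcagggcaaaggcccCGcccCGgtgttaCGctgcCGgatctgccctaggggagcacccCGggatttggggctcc
1700017J07Rik promoter: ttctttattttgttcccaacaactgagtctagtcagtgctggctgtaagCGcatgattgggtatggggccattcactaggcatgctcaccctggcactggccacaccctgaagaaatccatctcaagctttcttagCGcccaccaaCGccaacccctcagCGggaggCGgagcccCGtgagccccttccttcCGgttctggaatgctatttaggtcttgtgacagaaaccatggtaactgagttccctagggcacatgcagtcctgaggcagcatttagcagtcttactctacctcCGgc
Proximal intergenic peak: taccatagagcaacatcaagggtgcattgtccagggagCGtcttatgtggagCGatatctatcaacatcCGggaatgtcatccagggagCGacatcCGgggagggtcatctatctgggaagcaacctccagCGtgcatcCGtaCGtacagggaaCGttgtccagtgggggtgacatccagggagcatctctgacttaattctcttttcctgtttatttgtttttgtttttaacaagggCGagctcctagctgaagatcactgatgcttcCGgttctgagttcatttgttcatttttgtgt
Distal intergenic peak: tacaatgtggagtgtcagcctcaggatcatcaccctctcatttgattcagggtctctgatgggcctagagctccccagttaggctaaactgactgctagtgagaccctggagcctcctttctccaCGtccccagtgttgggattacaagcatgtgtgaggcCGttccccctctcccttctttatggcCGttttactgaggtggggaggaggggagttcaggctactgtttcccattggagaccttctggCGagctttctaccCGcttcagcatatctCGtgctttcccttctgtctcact

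The Zfp64 promoter has 9 CpGs in its 300 bases and the 1700017J07Rik promoter 8, where the median of 32851 RefSeq promoters of this length is 7 and 54.2% and 51.4% of them have fewer. The proximal window has 11 CpGs and the distal window 6. The hexamer TGCCGC, which ZFP57 recognises when its CpG is methylated, was searched on both strands. It was found 0 times in each of these 4 sequences, and 11.6% of the 32851 promoters hold it. Over the whole ExE H3K4me3 peaks, which are longer (4 to 10.5 kb), it was found 0 times at Zfp64, 2 times in the proximal peak, 2 at 1700017J07Rik, 1 at Gm14260 and 1 in the distal peak. Over whole peaks, the 5 informative H3K4me3 peaks of ExE had 1.64 to 2.25 CpGs per 100 bases, against a median of 1.67 over 40468 autosomal peaks, and 19.4 to 45.5% of their bases were masked as repeats, against a median of 19.9%. Their CpG content thus lay near that of H3K4me3 peaks at large.

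The ChIP libraries held 2.09 to 22.9 M aligned reads, of which 0.271 to 6.82 M were assigned to an allele within peaks. Over the autosomes the paternal share of allelic reads was 47.4 to 51.2% in the 24 wild-type libraries and 44.2 to 48.9% in the 12 matDKO/CAST libraries, where reads assigned to 129 had been added to the maternal side alone. The tests below correct for that shift. Shares and log2 ratios of raw reads do not. All 7 markers on an epiblast list had a higher median H3K4me3 at their start in epiblast than in ExE, and 5 of 7 markers on an ExE list were higher in ExE, the exceptions being Eomes and Esrrb.

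H3K4me3 over the stretch formed a row of separate peaks rather than 1 domain. In ExE the strongest lay at the start of Zfp64 (168951000 to 168961500). It was followed by the proximal intergenic peak (168968500 to 168972500), a peak at 1700017J07Rik (168976500 to 168983000), a weak one at Gm14260 (168987000 to 168997500) and the distal intergenic peak (169004500 to 169010000). The highest window averaged 43.5 RPKM over the 6 ExE libraries at Zfp64, 17.5 RPKM in the proximal peak, 20.5 RPKM in the 1700017J07Rik peak, 3.05 RPKM in the Gm14260 peak and 18.8 RPKM in the distal peak. A last small peak (169033000 to 169035000) reached 1.16 RPKM and was not informative.

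The annotated starts of the noncoding genes were not where the mark was highest. Within the 3 windows around the 1700017J07Rik start, H3K4me3 was only 0.43 to 3.85 RPKM, and the highest window of its peak lay about 3 kb further on, past the end of the gene. At the Gm9873 start H3K4me3 was 0.00 to 0.25 RPKM in the 12 H3K4me3 libraries, below the inputs (0.43 to 0.68 RPKM), and the nearest ExE H3K4me3 peak ended 10025 bp before it. At the Zfp64 start the same measure was 22.3 to 45.2 RPKM. Gm9873 is thus followed below through H3K36me3. In ExE, but not in epiblast, an H3K36me3 peak of 35.5 kb covered it. That peak also spans the distal intergenic peak, so it need not report on Gm9873 alone.

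**Figure D1:**
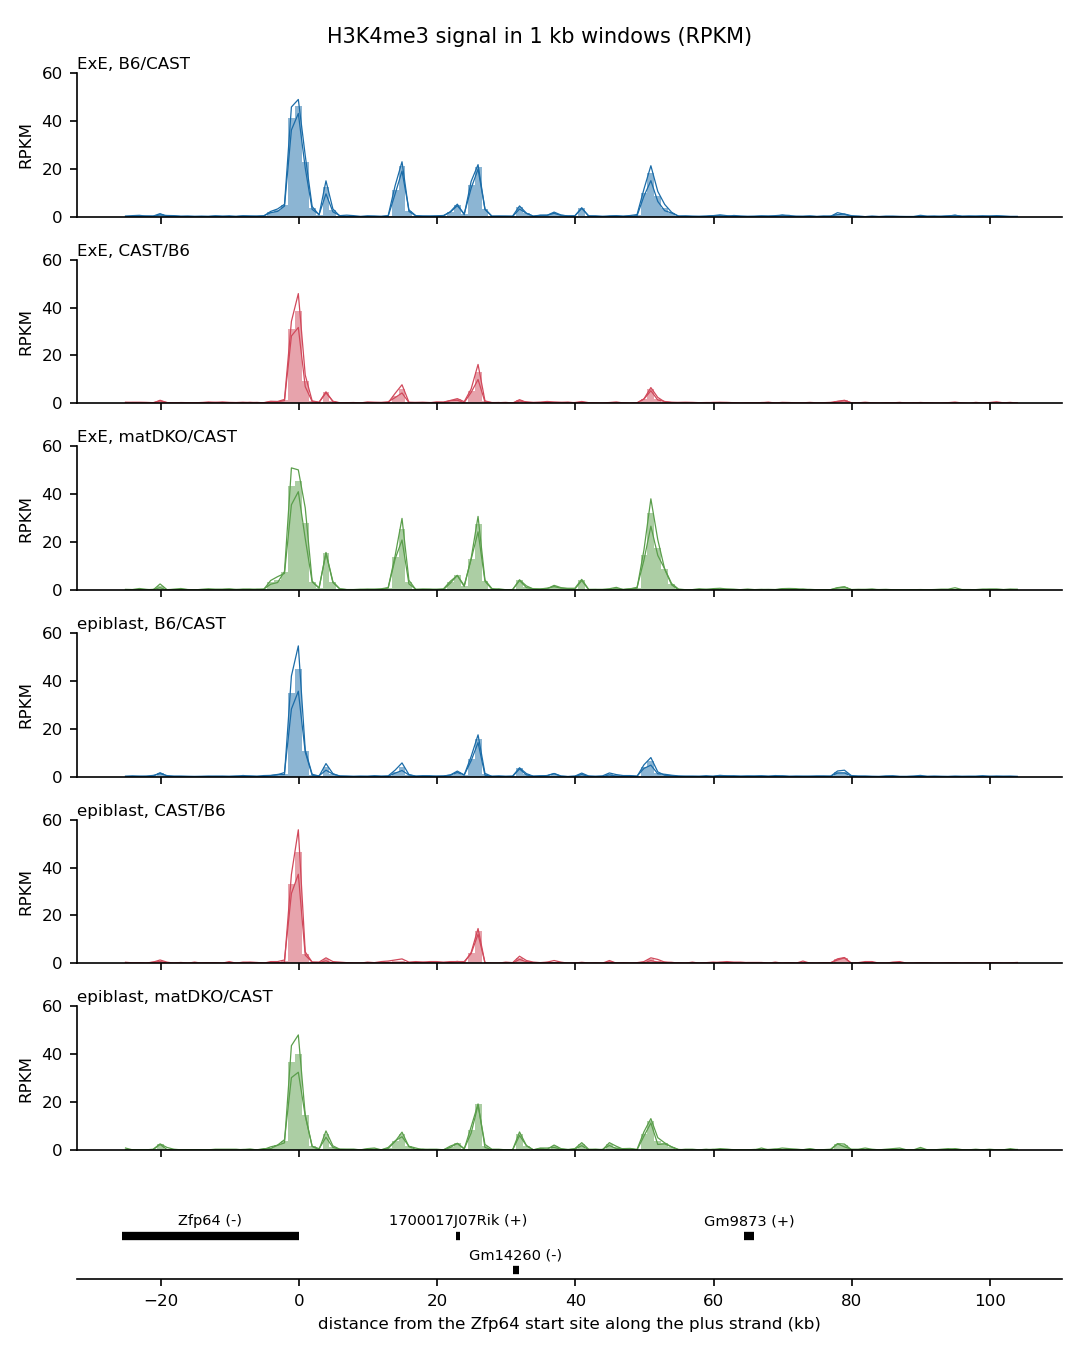
H3K4me3 in RPKM per 1 kb window (y axis) against distance in kb from the Zfp64 start site along the plus strand (x axis), for epiblast and ExE of the 3 crosses. Bars are the mean of 2 libraries, lines the single libraries, and the track below shows the annotated genes. The distal intergenic peak, about 50 kb from Zfp64, is high in ExE of B6/CAST and matDKO/CAST and low in CAST/B6.

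In wild-type ExE all 5 informative H3K4me3 peaks carried more reads on the paternal than on the maternal allele in both reciprocal crosses, and all 5 leaned further to the father in CAST/B6 than in B6/CAST. At the Zfp64 start-site peak, B6/CAST replicates 1 and 2 had 518 and 291 paternal against 278 and 209 maternal reads, and CAST/B6 replicates 1 and 2 had 230 and 210 against 63 and 57. The paternal share averaged 61.6% ± 4.86 in B6/CAST and 78.6% ± 0.108 in the reciprocal CAST/B6 (SD, n = 2 each). All 4 libraries lay above 50% and the libraries of the crosses did not overlap. In log2 units, the pooled ratio of paternal to maternal reads was 0.73 and 1.87.

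The widest gap between the crosses lay at 1700017J07Rik. Its peak had 392 and 243 paternal against 258 and 239 maternal reads in B6/CAST, and 211 and 233 against 12 and 6 in CAST/B6. In B6/CAST replicate 1 leaned to the father (60.3%) and replicate 2 was near equal (50.4%), a mean of 55.4% ± 7.00 (SD, n = 2), while in CAST/B6 hardly any reads came from the mother. The paternal share there was 94.6% in replicate 1 (exact 95% binomial interval 90.8 to 97.2%) and 97.5% in replicate 2 (94.6 to 99.1%). These intervals cover counting error only. The log2 ratio rose from 0.35 to 4.59, a difference of 4.23 between the crosses.

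The proximal intergenic peak behaved alike, with a mostly paternal signal in CAST/B6 and a milder lean in B6/CAST. It had 259 and 142 paternal against 144 and 105 maternal reads in B6/CAST and 65 and 79 against 6 and 6 in CAST/B6. The shares were 60.9% ± 4.79 and 92.2% ± 0.984 (SD, n = 2 each), and the log2 ratios 0.69 and 3.53. The distal intergenic peak was the only one of the 5 with a strong paternal lean in B6/CAST as well. It had 522 and 291 paternal against 124 and 71 maternal reads in B6/CAST (80.6% ± 0.296, SD, n = 2), and 106 and 104 against 12 and 1 in CAST/B6 (94.4% ± 6.52, SD, n = 2). Its log2 ratios were 2.06 and 3.96. The lone maternal read of CAST/B6 replicate 2 gave a share of 99.0% (exact 95% interval 94.8 to 100.0%), against 89.8% (82.9 to 94.6%) in replicate 1.

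At the weak Gm14260 peak the gap between the crosses was the smallest of the 5, at 0.60 on the log2 scale. It had 93 and 83 paternal against 80 and 48 maternal reads in B6/CAST and 38 and 27 against 20 and 11 in CAST/B6, which is 58.6% ± 6.79 and 68.3% ± 3.91 (SD, n = 2 each). The not informative peak at 169033000 had at most 5 reads on any allele in any library.

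As a description of how often the same lean occurs elsewhere, 6.2% of the 23211 informative ExE peaks had an edgeR call (adjusted p below 0.05) of paternal bias in B6/CAST and 3.31% in CAST/B6. Of the 5 members, 4 had the call in each cross. The stretch was picked on these values, so nothing is read from that count.

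**Figure D2:**
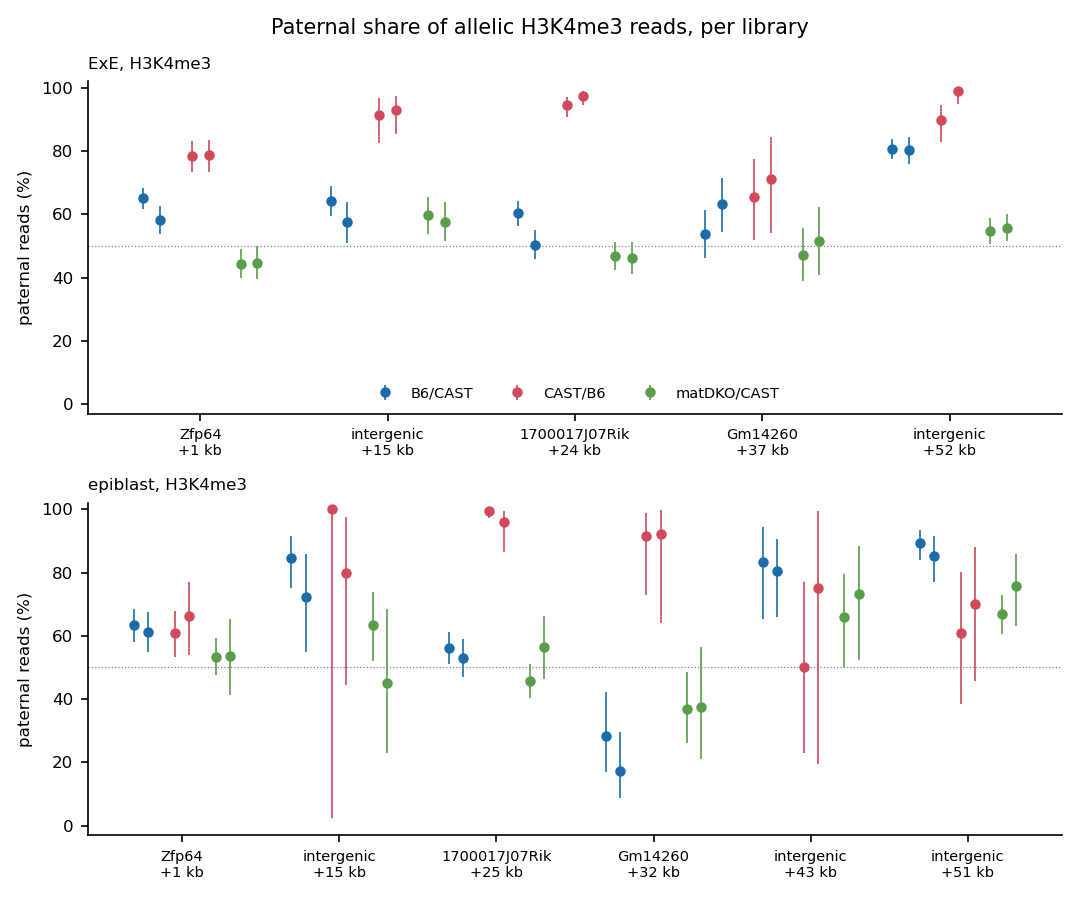
Paternal share of allelic H3K4me3 reads in percent (y axis) at each informative peak of the stretch (x axis), for ExE and epiblast. Points are libraries coloured by cross, bars are exact 95% binomial intervals and the dotted line marks 50%. In ExE the CAST/B6 libraries of the 1700017J07Rik peak sit at 94.6 and 97.5%, those of B6/CAST at 60.3 and 50.4%, and those of matDKO/CAST near 50%.

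Scaled to each library's allelic reads, the gap between the crosses in ExE came mostly from the mother's copy. At 1700017J07Rik the paternal allele had 54.5 ± 4.18 reads per M allelic reads in B6/CAST and 50.3 ± 6.41 in CAST/B6 (SD, n = 2 each), a ratio of 1.08, although the father was CAST in the one and B6 in the other. The maternal allele had 44.3 ± 9.11 reads per M in B6/CAST, where it is B6, and 2.01 ± 0.842 in CAST/B6, where it is CAST, a ratio of 22.1. The same ratio of the B6 to the CAST maternal allele was 16.0 at the proximal peak, 11.7 at the distal peak, 3.14 at Zfp64 and 3.16 at Gm14260. The paternal alleles differed by 1.39 times at Zfp64, 2.08 at the proximal peak, 2.14 at Gm14260 and 2.91 at the distal peak, each time with more on the CAST father of B6/CAST. At these ExE peaks a maternal copy with reads near 0 was therefore seen only when it came from CAST. In epiblast the B6 maternal allele of B6/CAST was low too, with 2.14 reads per M at the proximal peak and 3.25 at the distal peak.

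**Figure D3:**
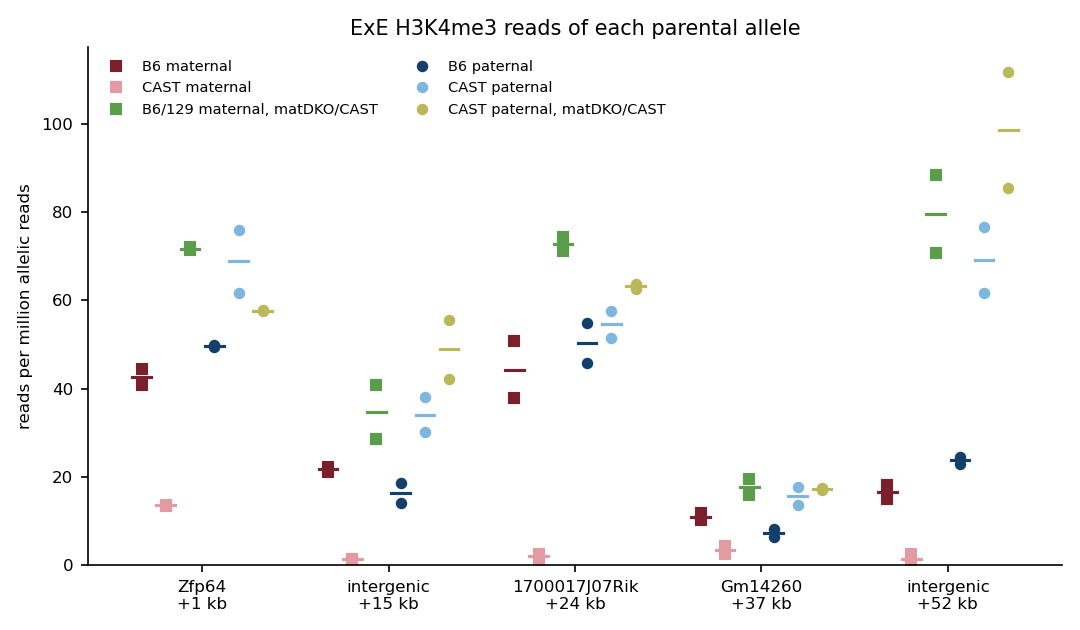
H3K4me3 of each parental allele in ExE, in reads per M allelic reads of the library (y axis), at the 5 informative peaks in the 3 crosses (x axis). Squares are maternal and circles paternal, 1 per library, and lines are means of 2. The maternal allele of the distal intergenic peak averages 79.6 in matDKO/CAST, against 16.6 with a B6 mother and 1.42 with a CAST mother.

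The embryos without oocyte methylation were compared next, a contrast of the alleles inside matDKO/CAST that the choice of the stretch did not use. In ExE, 0 of the 5 informative peaks had a parental bias by the edgeR test in matDKO/CAST (of all 23211 informative peaks, 227 or 0.978% were called paternal and 413 maternal), and 1 had an unadjusted p below 0.05. DESeq2 called 0 as well, with an unadjusted p below 0.05 at 2, 1 paternal and 1 maternal. At the Zfp64 start-site peak, replicates 2 and 3 had 222 and 156 paternal against 278 and 193 maternal reads. This is a paternal share of 44.5% ± 0.212 (SD, n = 2), and the log2 ratio after correction for the shift of all reads was -0.21 ± 0.16 (SE; 95% interval -0.55 to 0.13; edgeR adjusted p 0.718). Both matDKO/CAST libraries lay below all 4 wild-type libraries.

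At 1700017J07Rik matDKO/CAST had 242 and 172 paternal against 275 and 201 maternal reads, a share of 46.5% ± 0.492 (SD, n = 2). The log2 ratio was -0.10 ± 0.16 (SE; 95% interval -0.44 to 0.25; edgeR adjusted p 0.922). At Gm14260 the reads were 67 and 46 against 75 and 43, with a log2 ratio of 0.06 ± 0.23 (SE; edgeR adjusted p 0.977).

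The intergenic peaks kept a small paternal lean whose call depends on the fit. The proximal peak had 163 and 150 paternal against 110 and 110 maternal reads (58.7% ± 1.43, SD, n = 2) and a log2 ratio of 0.61 ± 0.22 (SE; 95% interval 0.13 to 1.09; edgeR adjusted p 0.237). The distal peak had 330 and 302 against 273 and 239 reads (55.3% ± 0.775, SD, n = 2) and a log2 ratio of 0.41 ± 0.19 (SE; 95% interval -0.01 to 0.83; edgeR adjusted p 0.425). With the library as a block, which pairs the maternal and paternal reads of a sample, both were called, with edgeR adjusted p of 1.40e-04 for 0.61 and 1.24e-04 for 0.41. The proximal peak alone was also called in a fit over all 3 crosses (log2 ratio 0.62, edgeR adjusted p 0.0453). Without replicate 3, which leaves 1 matDKO/CAST library, its log2 ratio was 0.74.

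Read against B6/CAST, which has the same CAST father, the change lay on the maternal side at the distal peak. Its maternal allele had 16.6 ± 2.20 reads per M allelic reads in B6/CAST and 79.6 ± 12.6 in matDKO/CAST (SD, n = 2 each), 4.79 times as many, while the paternal allele had 69.1 ± 10.5 and 98.6 ± 18.7, 1.43 times as many. At Zfp64 the maternal allele went from 42.5 ± 2.54 to 71.7 ± 0.354 reads per M and the paternal from 68.8 ± 10.0 to 57.6 ± 0.209. The maternal ratio of matDKO/CAST to B6/CAST was 1.69 at Zfp64, 1.60 at the proximal peak, 1.64 at 1700017J07Rik and 1.61 at Gm14260, and the paternal ratios were 0.837, 1.44, 1.16 and 1.10. These ratios use the B6/CAST libraries on which the stretch was picked, and include the 129 reads added to the mother's side, so they are given without a test.

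**Figure D4:**
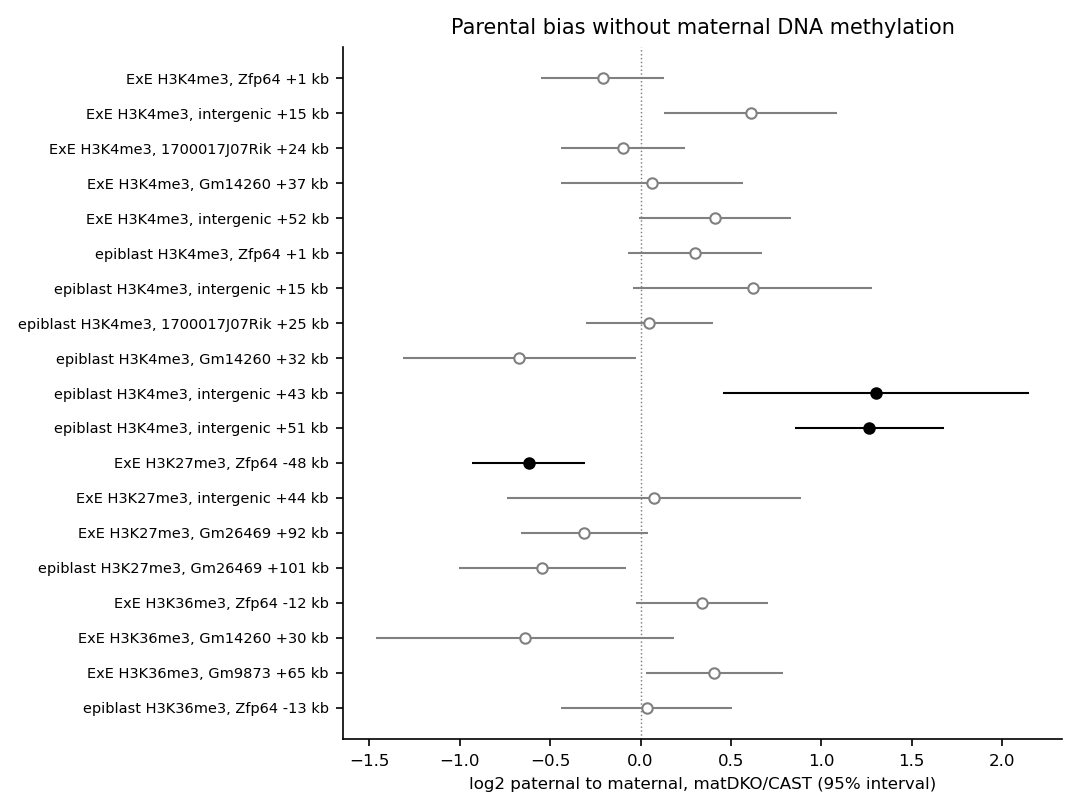
Log2 ratio of paternal to maternal reads in matDKO/CAST with its 95% interval (x axis, edgeR) for the informative peaks of the stretch (y axis), by mark and tissue. Filled points had an adjusted p below 0.05: 2 epiblast H3K4me3 peaks above 0 and 1 long ExE H3K27me3 peak below 0. The cross has no reciprocal, so parent and strain cannot be told apart.

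The epiblast carried counterparts of the ExE peaks and 2 further ones, at 168934500 and 168995500, and the cross with the larger bias was not the same at every peak. At 1700017J07Rik (168977500 to 168983000) the order was that of ExE. B6/CAST replicates 1 and 2 had 217 and 142 paternal against 170 and 126 maternal reads (54.5% ± 2.18, SD, n = 2), and CAST/B6 replicates 2 and 3 had 193 and 49 against 1 and 2 (97.8% ± 2.41, SD, n = 2). The pooled log2 ratios were 0.28 and 6.11. The maternal CAST allele was thus nearly bare of H3K4me3 in both tissues.

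At the distal intergenic peak (169004500 to 169009500) the order was the other way round. B6/CAST had 169 and 87 paternal against 20 and 15 maternal reads, and CAST/B6 had only 14 and 14 against 9 and 6. The shares were 87.4% ± 2.92 and 65.4% ± 6.46 (SD, n = 2 each), with log2 ratios of 2.85 and 0.88. Here the paternal allele was 3.58 times as high in B6/CAST as in CAST/B6 per M allelic reads and the maternal allele 1.06 times, so in epiblast the gap at this peak lay on the father's copy. Total signal there was only 0.430 and 0.859 RPKM in CAST/B6, against 0.349 to 0.613 RPKM in its epiblast inputs. Part of its allelic reads may thus be background. The difference between the tissues was not tested. An epiblast peak at 168995500 to 169002000, between Gm14260 and the distal peak, had 25 and 37 paternal against 5 and 9 maternal reads in B6/CAST and 7 and 3 against 7 and 1 in CAST/B6, too few in CAST/B6 to place its share (62.5% ± 17.7, SD, n = 2).

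At the Zfp64 start site the epiblast crosses were close. The peak (168951500 to 168961000) had 230 and 152 paternal against 133 and 96 maternal reads in B6/CAST and 116 and 47 against 75 and 24 in CAST/B6. The paternal share was 62.3% ± 1.46 and 63.5% ± 3.86 (SD, n = 2 each), so a moderate paternal lean of the same size was present in both crosses. The proximal peak had 71 and 26 against 13 and 10 reads in B6/CAST, and 1 and 8 against 0 and 2 in CAST/B6, which is too few to compare. Gm14260 (168986500 to 168989000) followed the strain and not the parent, with 15 and 10 paternal against 38 and 48 maternal reads in B6/CAST and 22 and 12 against 2 and 1 in CAST/B6. Its B6 allele was the higher one in all 4 libraries. The 2 remaining peaks, at 168934500 and 169033000, were not informative, with at most 16 reads on any allele. Of the 6 informative epiblast peaks, 1 in B6/CAST (0.792% of all 20328 informative peaks) and 2 in CAST/B6 (0.994%) had an edgeR call of paternal bias, again a description of peaks picked for it.

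In epiblast of matDKO/CAST, 2 of the 6 informative peaks were called paternal by the edgeR test, where 2.64% of all informative peaks were. These leans are towards the CAST allele as well, and parent and strain cannot be told apart. The distal peak had 164 and 47 paternal against 81 and 15 maternal reads in replicates 1 and 2, a share of 71.4% ± 6.27 (SD, n = 2). Its log2 ratio was 1.27 ± 0.21 (SE; 95% interval 0.85 to 1.68; edgeR adjusted p 3.48e-07), with both libraries paternal. DESeq2 gave 1.35 with an adjusted p of 0.0273. The peak at 168995500 was informative only through the CAST paternal allele of B6/CAST, so a paternal lean was partly picked for. It had 29 and 19 against 15 and 7 reads (69.5% ± 5.07, SD, n = 2) and a log2 ratio of 1.31 ± 0.43 (SE; 95% interval 0.46 to 2.15; edgeR adjusted p 0.04), and DESeq2 did not call it. Neither was called once 1 of the 2 libraries was left out, where the distal peak had log2 ratios of 1.77 and 1.09 with edgeR adjusted p of 0.528 and 0.447, each time with a lone library assumed to vary like the rest.

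The other 4 epiblast peaks were not called in matDKO/CAST. Zfp64 had 157 and 38 paternal against 137 and 33 maternal reads and a log2 ratio of 0.30 ± 0.19 (SE; edgeR adjusted p 0.461). The 1700017J07Rik peak had 152 and 57 against 181 and 44 reads and a log2 ratio of 0.05 ± 0.18 (SE; edgeR adjusted p 0.949). Its wild-type shares were 54.5% in B6/CAST, which has the same CAST father, and 97.8% in CAST/B6. The proximal peak gave 0.62 ± 0.34 (SE; edgeR adjusted p 0.349), and Gm14260 gave -0.67 ± 0.33 (SE; edgeR adjusted p 0.272), still leaning to the B6 or 129 allele of the mother. The distal log2 ratio of matDKO/CAST was thus 1.27 in epiblast and 0.41 in ExE, and whether the tissues differ was not tested.

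H3K36me3, the mark of transcribed bodies, was followed over Zfp64 and Gm9873. In ExE the peak over Gm9873 (169003000 to 169038500) had 256 and 144 paternal against 117 and 71 maternal reads in B6/CAST and 132 and 103 against 60 and 34 in CAST/B6. Its paternal share was 67.8% ± 1.17 and 72.0% ± 4.55 (SD, n = 2 each), a lean of like size in both crosses (log2 ratios 1.09 and 1.32). In matDKO/CAST replicates 2 and 3 it had 82 and 135 against 59 and 125 reads, a share of 55.0% ± 4.41 (SD, n = 2) and a log2 ratio of 0.41 ± 0.19 (SE; edgeR adjusted p 0.558). None of the 3 ExE H3K36me3 peaks was called there by edgeR (0.276% of all informative peaks were called paternal).

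Over Zfp64 (168918000 to 168969500) the H3K36me3 share in ExE was higher in CAST/B6, as for H3K4me3. It had 273 and 209 paternal against 255 and 177 maternal reads in B6/CAST and 247 and 188 against 104 and 87 in CAST/B6, which is 52.9% ± 1.73 and 69.4% ± 1.42 (SD, n = 2 each), with no overlap between the libraries. In matDKO/CAST the reads were 81 and 150 against 65 and 139, with a log2 ratio of 0.34 ± 0.18 (SE; edgeR adjusted p 0.686). A short peak between 1700017J07Rik and Gm14260 (168982000 to 168990000) had mean paternal shares of 49.6% and 77.3% in the wild-type crosses, B6/CAST first, and 34.6% in matDKO/CAST (n = 2 each), from at most 38 reads on any allele. In epiblast the Zfp64 body had shares of 47.5% ± 2.49, 56.1% ± 0.0503 and 48.4% ± 0.0546 (SD, n = 2 each) in the 3 crosses in the same order, and its log2 ratio in matDKO/CAST was 0.03 ± 0.24 (SE; edgeR adjusted p 0.996).

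H3K27me3 lay at both edges of the stretch in ExE, with a short peak between Gm14260 and the distal intergenic peak. The 58 kb peak at 168878500 to 168936500, inside the body of Zfp64 and beyond its far end, had paternal shares in ExE of 42.0% ± 0.0219 in B6/CAST, 40.9% ± 1.42 in its reciprocal and 34.9% ± 2.01 in matDKO/CAST (SD, n = 2 each). In matDKO/CAST it was called maternal, with a log2 ratio of -0.62 ± 0.16 (SE; 95% interval -0.93 to -0.31; edgeR adjusted p 0.0158), where 1.29% of all 18592 informative ExE H3K27me3 peaks were. The call was lost with DESeq2 (adjusted p 0.712) and without replicate 3 (-0.46, edgeR adjusted p 0.187), and only the edge of this peak lies in the stretch. The peak at the other edge (169032000 to 169064000) had shares of 50.8% ± 0.387 and 58.7% ± 0.0243 in the wild-type crosses, B6/CAST first, and 40.0% ± 0.222 in matDKO/CAST (SD, n = 2 each). The ExE peaks at 168996500 and 169032000, had log2 ratios of 0.07 ± 0.41 and -0.31 ± 0.18 in matDKO/CAST (SE; edgeR adjusted p 0.968 and 0.465). The epiblast peak at 169049000, which like the last ExE peak holds the annotated miRNA gene Gm26469, had shares of 48.4, 50.7 and 35.9% and a log2 ratio of -0.54 ± 0.23 (SE; edgeR adjusted p 0.31).

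**Figure D5:**
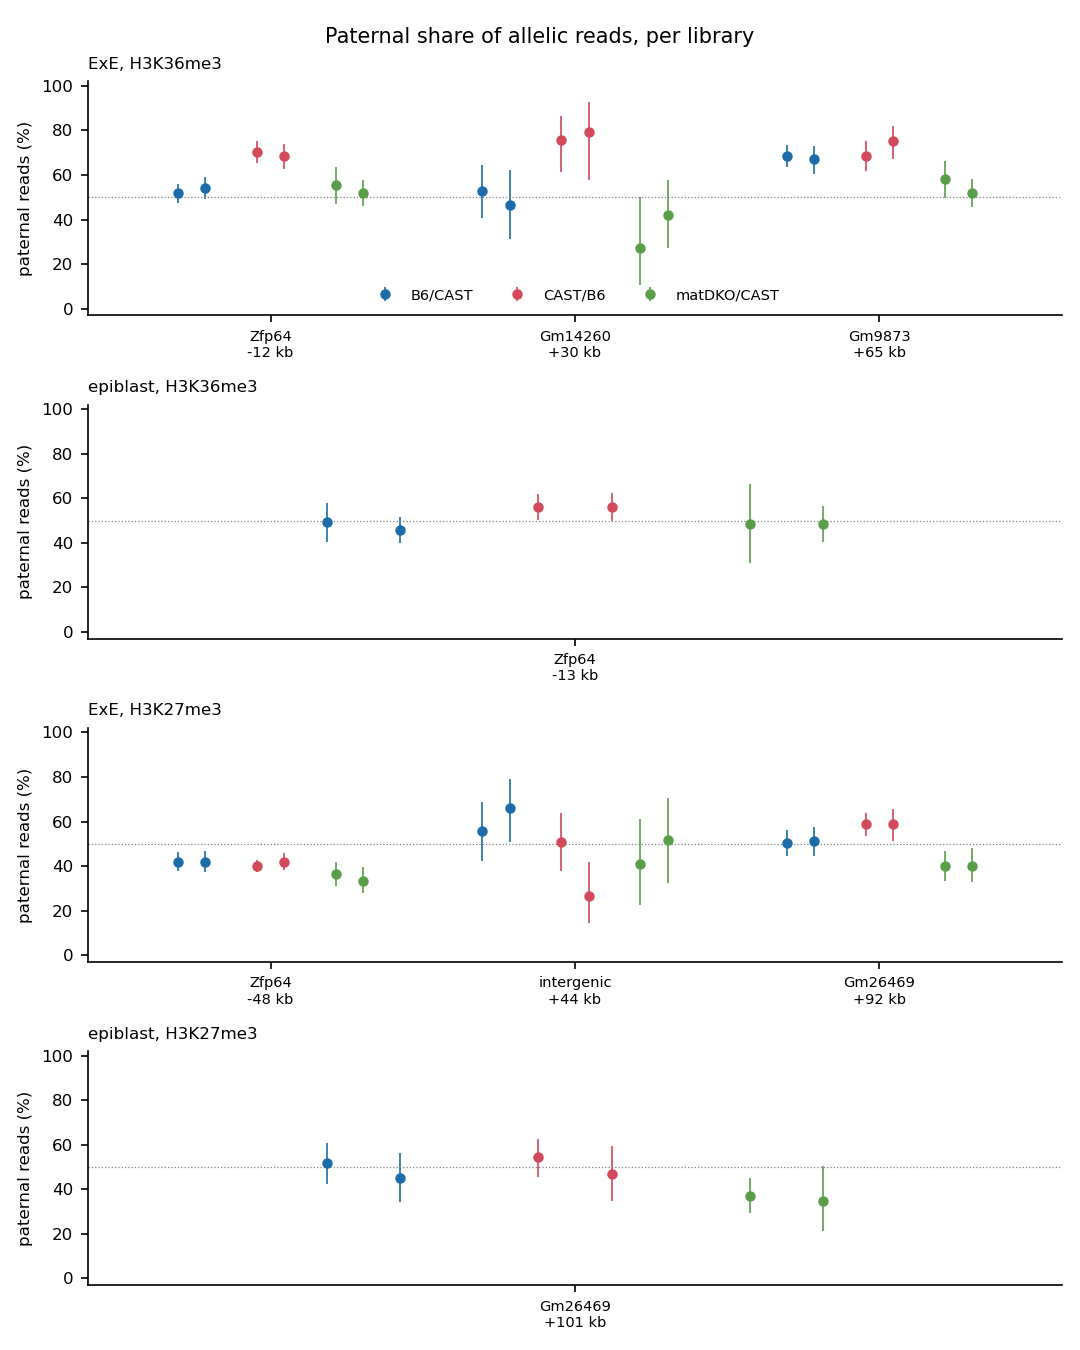
Paternal share of allelic reads in percent (y axis) at the informative H3K36me3 and H3K27me3 peaks of the stretch (x axis), by tissue. Points are libraries coloured by cross, bars are exact 95% binomial intervals and the dotted line marks 50%. At the Gm9873 H3K36me3 peak in ExE the wild-type means are 67.8 and 72.0% and the matDKO/CAST mean is 55.0%.

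Total signal, without regard to the allele, was compared between the tissues with limma on log2 of RPKM plus 0.5. The difference is the mean of the B6/CAST and CAST/B6 differences (4 libraries against 4); the matDKO/CAST libraries enter only the estimate of the spread and are printed beside it. Of the 7 H3K4me3 peaks (both tissues' peaks joined), 3 were higher in ExE (28.3% of all 45650 peaks were) and 1 was lower (19.1% of all). The members' median log2 difference was 0.24, against 0.08 over all peaks. The proximal peak had 9.63 and 7.89 RPKM in ExE and 2.38 and 1.19 RPKM in epiblast of B6/CAST, 1.91 and 3.13 against 0.228 and 1.12 RPKM in CAST/B6, and 9.28 and 12.3 against 3.20 and 2.93 RPKM in matDKO/CAST. ExE was higher in each cross, and the wild-type log2 difference was 1.75 ± 0.20 (SE; limma adjusted p 3.03e-08).

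The distal peak had 8.53 and 5.72 RPKM in ExE and 2.64 and 1.84 RPKM in epiblast of B6/CAST, 1.60 and 2.01 against 0.430 and 0.859 RPKM in CAST/B6, and 11.0 and 14.6 against 5.00 and 3.83 RPKM in matDKO/CAST. Its log2 difference was 1.25 ± 0.17 (SE; limma adjusted p 9.74e-07), and the lower of the CAST/B6 epiblast libraries lay within the range of the inputs. At 1700017J07Rik the ExE libraries had 6.85 and 6.16, 2.59 and 3.93, and 7.54 and 8.36 RPKM in B6/CAST, its reciprocal and matDKO/CAST, and the epiblast libraries 4.43 and 3.51, 2.92 and 2.69, and 4.92 and 4.60 RPKM. The ranges of the tissues overlapped, with a log2 difference of 0.41 ± 0.16 (SE; limma adjusted p 0.0302). That call was lost without B6/CAST epiblast replicate 2 (0.33, limma adjusted p 0.132), B6/CAST ExE replicate 1 (0.37, 0.103), CAST/B6 epiblast replicate 3 (0.38, 0.0612) or CAST/B6 ExE replicate 2 (0.28, 0.179). The Zfp64 start-site peak had 7.55 to 17.2 RPKM in ExE and 7.62 to 12.3 RPKM in epiblast, a log2 difference of 0.24 ± 0.17 (SE; limma adjusted p 0.264), which was called with quantile normalization (0.38, adjusted p 4.76e-04) and by edgeR on recovered reads (0.28, adjusted p 0.029). The proximal and distal intergenic peaks thus had the larger excess in ExE. The small peak at 169033000 was lower there (-0.64 ± 0.18, SE; limma adjusted p 0.00449), a call lost without B6/CAST epiblast replicate 2 (-0.50, limma adjusted p 0.0523).

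H3K36me3 was higher in ExE at all 3 peaks of the stretch (22.4% of all 24238 peaks were), with a member median of 0.43 against -0.14 over all peaks. The bounds of all 3 were those of the ExE peaks, and the peak over Gm9873 was called in ExE only. A higher value in ExE is thus partly built into these intervals. Over Gm9873 the ExE libraries had 1.82 and 1.31, 0.812 and 0.824, and 1.91 and 2.06 RPKM in B6/CAST, its reciprocal and matDKO/CAST, and the epiblast libraries 0.719 and 0.554, 0.575 and 0.608, and 0.793 and 0.983 RPKM. ExE was higher in each cross, though CAST/B6 ExE overlapped matDKO/CAST epiblast, and the wild-type log2 difference was 0.56 ± 0.09 (SE; limma adjusted p 0.00152). The peak at 168982000 differed by 0.43 ± 0.11 (SE; limma adjusted p 0.0109). The Zfp64 body differed by 0.38 ± 0.08 (SE; limma adjusted p 0.00435), which fell to 0.12 (limma adjusted p 0.263) with quantile normalization. That normalization also moved the split of all called H3K36me3 peaks from 46.1% higher in ExE to 67.1%.

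H3K27me3 was higher in ExE at 1 of 3 peaks, 168996500 to 169002500 (0.28 ± 0.10, SE; limma adjusted p 0.035), where 44.7% of all 23399 peaks were higher. This interval was a peak in ExE only. Its wild-type libraries had 0.60 to 0.78 RPKM in ExE and 0.34 to 0.64 RPKM in epiblast, near the wild-type inputs (0.33 to 0.51 RPKM). The members' median of 0.23 was that of all peaks (0.22). That call was lost in 8 of 13 other settings, among them edgeR on recovered reads (0.13, adjusted p 0.637), which called the 58 kb peak at 168878500 lower instead (-0.40, adjusted p 1.20e-04), and leaving out any 1 of 6 of the 8 wild-type libraries (0.22 to 0.29, limma adjusted p 0.0576 to 0.131). With quantile normalization 0 were called and the median over all peaks was 0.03, while the share of higher among all called peaks went from 83.9 to 55.3%. Summed H3K4me3 at the starts of visceral endoderm markers, cells that wrap both tissues, was 61.0 to 91.9 RPKM in ExE and 41.8 to 66.1 RPKM in epiblast, at those of mesoderm markers 23.0 to 41.4 and 28.8 to 66.9 RPKM, and at those of decidua and blood markers 4.77 to 7.40 and 7.25 to 13.8 RPKM. By median, 6 of 7 visceral endoderm markers were higher in ExE (Foxa2 was not), 2 of 3 mesoderm markers (Mixl1 and T) were higher in epiblast, and 6 of 7 decidua and blood markers (not Col1a1) were under 1 RPKM in both tissues. Their part in the differences between the tissues was not tested.

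Total signal was also set against B6/CAST in each tissue. In matDKO/CAST 0 peaks of the stretch were called for any mark by limma. Few were called anywhere. Of 45650 H3K4me3 peaks, 4 were higher and 70 lower in ExE, and 74 and 41 in epiblast. At most 8 of 23399 H3K27me3 and 1 of 24238 H3K36me3 peaks were called in a direction in either tissue. At an unadjusted p below 0.05 there were 1 of 7 H3K4me3 peaks in ExE and 2 of 7 in epiblast, 0 and 1 H3K27me3 peaks, and 0 and 2 H3K36me3 peaks, all higher in matDKO/CAST. Over all peaks, 292 of 45650 H3K4me3 peaks in ExE and 2438 in epiblast were higher at that level. In epiblast, so were 1423 of 23399 H3K27me3 and 961 of 24238 H3K36me3 peaks. The distal peak had the same direction in both tissues, with more H3K4me3 in matDKO/CAST by 0.81 ± 0.24 in ExE (SE; 95% interval 0.32 to 1.31; limma adjusted p 0.349) and 0.85 ± 0.24 in epiblast (SE; 95% interval 0.35 to 1.34; limma adjusted p 0.16). All 4 matDKO/CAST libraries lay above the B6/CAST libraries of their tissue. On read numbers recovered from the RPKM steps, edgeR called the distal peak in ExE (0.94, adjusted p 0.00248) and in epiblast (0.93, adjusted p 0.0198). It also called epiblast H3K36me3 over Gm9873 (0.64, adjusted p 0.0333), in an interval that was a peak in ExE only.

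CAST/B6 had less H3K4me3 than B6/CAST at most peaks of the stretch, which is given without a test because the choice of the stretch used both crosses. In ExE the log2 difference was -0.62 at Zfp64, -1.64 at the proximal peak, -0.92 at 1700017J07Rik and -1.71 at the distal peak, while the median over all peaks was itself -0.38. At 168986500, 169033000 and 168934500 it was -0.70, -0.16 and 0.08. In epiblast it was -1.02 at the proximal peak, -1.27 at the distal peak, -0.43 at 1700017J07Rik and -0.34 at 168986500. It was -0.16 at Zfp64, -0.15 at 168934500 and 0.00075 at 169033000, all above the median over all peaks of -0.26. Over the other settings the epiblast values ran from -1.76 to -0.45 at the proximal peak, -1.91 to -0.70 at the distal peak, -0.58 to -0.052 at 1700017J07Rik and -0.70 to 0.016 at 168986500. Under quantile normalization the ExE values were -0.62, -1.24, -0.54 and -1.22, and with edgeR on recovered reads the value at Zfp64 was -0.24.

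Peaks beyond the stretch varied widely around medians near 0. The 26 other informative ExE H3K4me3 peaks within 500 kb had median log2 ratios of -0.13 and 0.29 in the wild-type crosses, B6/CAST first, and -0.03 in matDKO/CAST, and the 15 in epiblast had -0.14, 0.06 and -0.05. Single ExE peaks there ranged from -3.55 to 2.68 in B6/CAST and from -1.14 to 4.35 in CAST/B6. The nearest one on the Zfp64 side (168910500 to 168914500), inside the gene, had -0.18 and 0.94, so it too leaned more to the father in CAST/B6 (189 paternal and 98 maternal reads). At the start of Atp9a, which encodes a phospholipid flippase, the ExE log2 ratios were 0.58, -0.51 and 0.41 in the same order of crosses, so the CAST allele was the higher one in each cross. At Nfatc2, which encodes a transcription factor of calcium signalling, they were 0.13, -0.62 and 0.45. At Sall4, a pluripotency factor whose peak also holds the start of Gm14261, they were -0.11, 0.10 and -0.06, all near 0. The peak nearest to Gm14258 (169087500 to 169090000) is the first informative one beyond the distal edge, and it leaned the same way as the members with 0.16, 1.34 and 0.17, from 21 paternal and 8 maternal reads in CAST/B6. Those nearest to Gm25214 and Mir7004 had 0.39, -0.13 and 0.68, then 0.68, 0.20 and -0.49. In epiblast Nfatc2 had 0.42, -0.38 and -0.18, Atp9a 0.19, 0.08 and -0.09, Sall4 -0.00, 0.21 and -0.05, and Gm25214 -0.99, 0.07 and -0.51. The peaks nearest to 9430093N23Rik, Gm14250, 4930529I22Rik and Gm14249 were not informative.

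Among 11921 start-site peaks with at least 20 allelic reads in each of the 6 ExE H3K4me3 libraries, those with the allelic pattern most like the Zfp64 start-site peak were those of Ccdc40 (Euclidean distance 0.744 over 6 log2 ratios), Gm16299 (1.04), 8030453O22Rik (1.09), Gm26841 with H13 and Mcts2 (1.29), and Gnas with Nespas (1.29). The median distance over all these peaks was 2.89, and nothing is said here of shared control. Set beside known imprinted genes, 15 listed genes with a maternally methylated germline region had median ExE log2 ratios of 1.31 and 2.05 in the same wild-type order and of 0.01 in matDKO/CAST (-0.85 to 0.62), with 0 called paternal and 1 maternal in matDKO/CAST by edgeR. Among them Plagl1, Inpp5f and Nnat had no call in either wild-type cross at the peak used, so their matDKO/CAST values show no loss of a lean. The 8 genes listed as noncanonically imprinted (of which Slc38a4 also has a methylated germline region at its promoter) had 2.00, 3.03 and 1.66 (-0.08 to 3.29), with 7 called paternal. The exception, at -0.08, was Gab1, for which the peak with the most reads is the one at its annotated start. The values of Zfp64 in the same order were 0.73, 1.87 and -0.32, those of 1700017J07Rik 0.35, 4.59 and -0.20, and those of the distal peak 2.06, 3.96 and 0.30. Those lists were drawn up with the study's loci known, and which list the stretch belongs with was not tested.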

How the data were processed

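Ultra-low-input native ChIP-seq libraries (chromatin cut with micrococcal nuclease) of E6.5 epiblast and ExE were used as deposited, 36 for H3K4me3, H3K27me3 and H3K36me3 and 15 inputs. According to the methods, and with versions from the submitters' processing notes, the authors trimmed reads with Trim Galore 0.4.4, aligned them with Bowtie2 2.3.2 to GRCm38 with strain variants masked and split reads by parent. For matDKO/CAST, variants that 129 shares with CAST were dropped and reads assigned to 129 in a second alignment were added to the maternal side only. The authors' peaks came from chromstaR, run for each cross and tissue, and were joined within each mark and tissue. The deposited allelic tables hold raw counts per peak and allele, without normalization. Intervals were taken from the start and end columns, since 10 of the 23 member peaks carry other coordinates in their names. The authors' window table holds RPKM for all aligned reads, and 100% of its values of up to 20 reads lay within 0.05 of a whole multiple of 1 read. In the deposited peak lists every score is 0, and none was used.

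Groups and replicate numbers were read from the labels. Nothing in them says more than that the 2 libraries of a group are separate pools, so p-values measure the spread between those. Paternal and maternal counts within matDKO/CAST were compared with edgeR 4.0.16 (quasi-likelihood, TMM factor per allele column, two-sided, Benjamini-Hochberg adjustment over all informative autosomal peaks). Total signal was the mean RPKM of a peak's windows, compared with limma 3.58.1 on log2 of RPKM plus 0.5, which understates changes of low values, with 1 mean per group and all 12 libraries of a mark for the spread. The tissue contrast averages the 2 wild-type crosses. Pooled log2 ratios used an added count of 0.5 per allele. Both fits were tested on simulated data. Alternatives were DESeq2 1.42.0, other normalizations, pseudocounts and filters, edgeR on reads recovered from RPKM, peaks wholly inside the stretch, all 3 crosses in 1 fit, leaving out each library, and a block. Other tools were R 4.3.3, Python 3.11.15, pandas 2.3.3, numpy 2.4.6 and scipy 1.17.1.

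Both alleles of a library were counted in 1 sample and are truly paired (deviations from group means correlated with r of 0.0184 to 0.577), so the fit with the library as a block is given where it changes a call. The matDKO/CAST and CAST/B6 comparisons of total signal share the B6/CAST libraries. A test of CAST/B6 against B6/CAST total signal had been planned and is not read here, since the choice of the stretch used that contrast.

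The members, gene lists and tests were chosen with earlier results of these data known. Named with values were the informative ExE H3K4me3 peaks, each member gene's peak or start-site windows in each table, any member called in a tested comparison, genes within 500 kb by their nearest H3K4me3 peak, and the 5 start-site peaks most like that of Zfp64. Listed imprinted genes are given by counts and medians, and 1 of the 16 canonical genes had too few reads to be tested. RefSeq promoter sequences were matched by symbol for Zfp64 and 1700017J07Rik. Gm9873 and Gm14260 were not matched.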

Additional observations from a re-analysis of the deposited data

Results flagged for a closer look

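The epiblast H3K4me3 peak at Gm14260 (168986500 to 168989000) stood out because the wild-type crosses moved in opposite directions in every library, with a pooled log2 ratio of paternal to maternal reads of -1.76 in B6/CAST and 3.30 in CAST/B6. The B6 allele was thus the higher one in both, and the difference was not tested. At the ExE H3K27me3 peak at 168996500 to 169002500 the pooled log2 ratios were 0.60 for B6/CAST and -0.55 for its reciprocal, again untested. Relative to the autosomes every library had the sign of its cross, but CAST/B6 replicate 1 lay close to 0, with 31 paternal and 30 maternal reads, so the value of that cross rests on replicate 2 (12 and 33 reads).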

How the results depend on the processing

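Each value was recomputed under each other setting. Of the summary results, 172 kept direction and call, 15 lost a call, 8 gained one, 6 moved and 4 reversed; for single peaks the numbers were 375, 22, 9, 32 and 16. The cause of these changes was not tested, save that leaving out a library or narrowing the members leaves fewer samples or peaks. The count of ExE H3K4me3 members called in matDKO/CAST was 0, and became 1 with all 3 crosses in 1 fit and 2 with the replicate block, and 0 to 1 when a library was left out. In epiblast the 2 calls became 1 with DESeq2 and 1 with all crosses in 1 fit, and 0 whichever library was left out. The 1 ExE H3K27me3 call became 0 with DESeq2 and 0 when only peaks wholly inside the stretch were kept, and 0 to 1 on leaving out a library. Between the tissues, the 4 H3K4me3 calls became 2 without B6/CAST epiblast replicate 2 and numbered 3 or 4 without 1 of the others (5 with quantile normalization and with edgeR on recovered reads, which add Zfp64), and the 1 H3K27me3 call became 0 with quantile normalization, 2 with same-numbered libraries as a replicate block and 0 to 2 on leaving out a library. With edgeR on recovered reads, matDKO/CAST against B6/CAST had 1 call for H3K4me3 in ExE, 1 in epiblast and 1 for H3K36me3 in epiblast, where limma had 0. Same-numbered epiblast and ExE libraries correlated at -0.0068 to 0.331, the higher values (0.243 to 0.331) being for H3K4me3 of the wild-type crosses. Whether these numbers pair the libraries is thus not settled. The block of same-numbered libraries changed no other count of members.

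Of the descriptions, the member median of CAST/B6 against B6/CAST total H3K4me3 (-0.70 in ExE, -0.34 in epiblast) was -1.0 with a pseudocount of 0.1 in ExE and -0.052 with quantile normalization in epiblast. The member median of the wild-type log2 ratios ranged, on leaving out a library, from 3.09 to 3.61 for ExE H3K4me3 in CAST/B6, from -0.47 to 0.047 for ExE H3K27me3 in CAST/B6, from -0.27 to 0.092 and from -0.17 to 0.25 for epiblast H3K27me3 in B6/CAST and CAST/B6, and from 0.16 to 0.24 for ExE H3K36me3 in B6/CAST, so that the H3K27me3 leans changed sign. Relative to the autosomes it was 0.0058 for epiblast H3K27me3 in B6/CAST, 0.24 for ExE H3K36me3 in B6/CAST and 0.28 for epiblast H3K36me3 in CAST/B6. Of the single log2 values named in the report, those of the matDKO/CAST bias that turned around, all on leaving out a library, were -0.16 at the proximal and -0.18 at the 1700017J07Rik peak in epiblast, -0.19 at the ExE H3K27me3 peak 168996500 and -0.0035 at the epiblast H3K36me3 peak. For CAST/B6 against B6/CAST total H3K4me3, signs turned at small values: with quantile normalization to 0.51 at 169033000 in ExE and to 0.21 at 168934500 and 0.016 at 168986500 in epiblast, with edgeR on recovered reads to 0.17 at 169033000 in ExE, and with the replicate block to -0.0029 at 169033000 in epiblast. On leaving out a library these values ran from -0.12 to 0.28 at 168934500 and from -0.33 to 0.0070 at 169033000 in ExE, and from -0.35 to 0.038 at 168934500, -0.41 to 0.091 at Zfp64 and -0.30 to 0.30 at 169033000 in epiblast.

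Over all peaks, calls in matDKO/CAST numbered 640 for ExE H3K4me3 (331 with DESeq2, 1252 without a read minimum, 1570 with all crosses, 2864 with the block), 1457 for epiblast H3K4me3 (216 with DESeq2, 663 with all crosses, 2293 with the block), 391 for ExE H3K27me3 (50, 679 and 924) and 54 for ExE H3K36me3 (13, 134 and 180). Between the tissues they numbered 12478 for H3K27me3 (6698 with quantile normalization) and 11788 for H3K36me3 (7213). For matDKO/CAST against B6/CAST total signal, edgeR on recovered reads called 104 ExE and 69 epiblast H3K4me3 and 202 epiblast H3K36me3 peaks, where limma called 74, 115 and 0. Depth limits the peaks that were not informative and several CAST/B6 alleles in epiblast, which had fewer than 10 reads.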
